A study of Mus musculus with 16 samples.

Results

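The comparison set 2 arrays of T cells that met a transient antigen in mice given an antibody against CD40 beside 3 arrays of T cells that met a persistent antigen in mice given PBS. They are 5 of the 16 arrays of a mouse study, chosen by their titles ("short dox, FGK" and "long dox, PBS"). The T cells were CD4+ cells of AND T cell receptor transgenic donors, which respond to moth cytochrome c peptide, and carried the congenic marker CD90.1. Donor lymph node cells were transferred into B10.BR recipients aged 6 to 8 weeks, and the CD4+CD90.1+ cells were sorted from subcutaneous lymph nodes after 60 h.

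All 5 recipient samples carried the same transgenes (Ii-rTA+, TIM+), which place the peptide under control of doxycycline. In the transient regime doxycycline was given from the day before transfer to the day of transfer, and in the persistent regime it was kept up until the cells were taken. The antibody FGK45.5, which stimulates CD40, or PBS was injected the day before transfer. The groups therefore differed at the same time in antigen duration, in antibody and in doxycycline exposure, and the effect of doxycycline itself was not tested. The labels do not name the animals behind each replicate, so a p-value here reflects only how far these samples spread, which may be technical.

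The other 11 arrays held the rest of the design: no antigen with PBS (3) or anti-CD40 (2), transient antigen with PBS (3) and persistent antigen with anti-CD40 (3). Recipients without antigen lacked one transgene (Ii-rTA−, TIM+). These arrays entered the fit as further groups, and they place the 2 regimes compared here on a common scale.

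A CD4 T cell that meets its peptide on a resting dendritic cell receives a receptor signal with little costimulation. Stimulation of CD40 activates the dendritic cell, which then shows more costimulatory ligands and secretes cytokines. Longer receptor signalling is known to favour the follicular helper programme, in which T cells express Bcl6, Cxcr5 and Il21 and help B cells, while costimulation and growth factor signals raise Myc, nutrient uptake and ribosome production. The comparison asks where brief antigen on activated dendritic cells and lasting antigen on resting ones left the T cells in different states.

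The sorted cells carried the RNA of CD4 T cells. On the 5 arrays the log2 level of Cd4 was 7.06 to 7.66, of Thy1, the gene of CD90, 8.27 to 9.64, and of Cd3e, a T cell receptor chain, 8.18 to 9.27, where the median probe set of the whole table stood at 4.37. All levels here are log2(intensity + 1). Median intensity per array over the series was 18.16 to 21.26.

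Arrays with the same replicate number resembled each other across the groups, though not they alone. Replicate 1 of the transient anti-CD40 group correlated with replicate 1 of the persistent PBS group at r = 0.992 over all genes, and the replicate 2 arrays with each other at r = 0.981. The replicates of the transient anti-CD40 group correlated at 0.959. Replicate 3 of persistent PBS was also close to both replicate 1 arrays, at 0.980 with transient anti-CD40 and 0.988 with persistent PBS. Xist, the RNA of the silenced X chromosome, stood at 5.10 and 5.71 on the replicate 1 arrays and at 10.47 to 10.64 on the other 3, and Y-linked Eif2s3y at 9.03 and 8.86 against 2.75 to 3.09. These levels are male-typical for replicate 1 and female-typical for the others. Replicate number was therefore also used as a block, which judges each difference mainly within a number.

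Across 18193 genes the regimes were close. Without a block limma called 0 genes at an adjusted p under 0.05 (0% of genes), with a smallest adjusted p of 0.63, and 633 genes (3.48%) had an unadjusted p under 0.05. With the replicate block it called 10 genes, 4 higher in transient antigen with anti-CD40 (0.022% of genes) and 6 lower (0.033%). At an unadjusted p under 0.05 the block gave 1239 genes higher (6.81%) and 648 lower (3.56%). Without regard to any fit, 1811 genes (9.95%) had both transient anti-CD40 arrays above all 3 persistent PBS arrays, and 822 (4.52%) had them below.

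Leaving out single arrays moved the count with the block. It was 56 without replicate 2 of transient anti-CD40, of which 51 were higher, and 6 without replicate 1, all lower. Without persistent PBS replicate 1, 2 or 3 it was 10, 10 and 7. Without a block the count was 4 without transient anti-CD40 replicate 2 and 2 without persistent PBS replicate 2.

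For most genes the intervals of the difference were narrow with the block. With the block, the 95% interval of the difference lay wholly within 1 log2 unit of 0 for 17206 genes (94.6%), and for 10362 of the 11247 genes above the median probe set (92.1%). Without the block it did so for 13452 genes (73.9%), and for 6927 of the 11247 above the median probe set (61.6%). Intervals wholly beyond 1 log2 unit were found for 6 genes with the block and 2 without.

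Each regime stood well apart from transient antigen with PBS. Adding anti-CD40 to transient antigen gave 116 calls without a block (0.638%), 95 higher and 21 lower, and 1912 with it (10.5%). Prolonging antigen with PBS gave 169 calls (0.929%), 110 higher and 59 lower, and 2079 with the block (11.4%). These contrasts share the transient PBS arrays, and the first minus the second is the comparison itself. Adding anti-CD40 to persistent antigen gave 0 calls in limma in either fit, with 110 and 484 genes at an unadjusted p under 0.05.

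The 6 genes called lower in transient antigen with anti-CD40 were Tox2, Timp2, Ikzf3, Pou2af1, Nt5e and Dsp. The 4 called higher were Spata5l1, Satb1, Grwd1 and Ebi3. None of these 10 passed without the block, where their adjusted p ran from 0.63 to 1.0. All 10 had no overlap between the arrays of the groups, as had 9.95% of all genes above and 4.52% below. They were called on these same arrays, so the lack of overlap is no separate evidence.

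**Figure D1:**
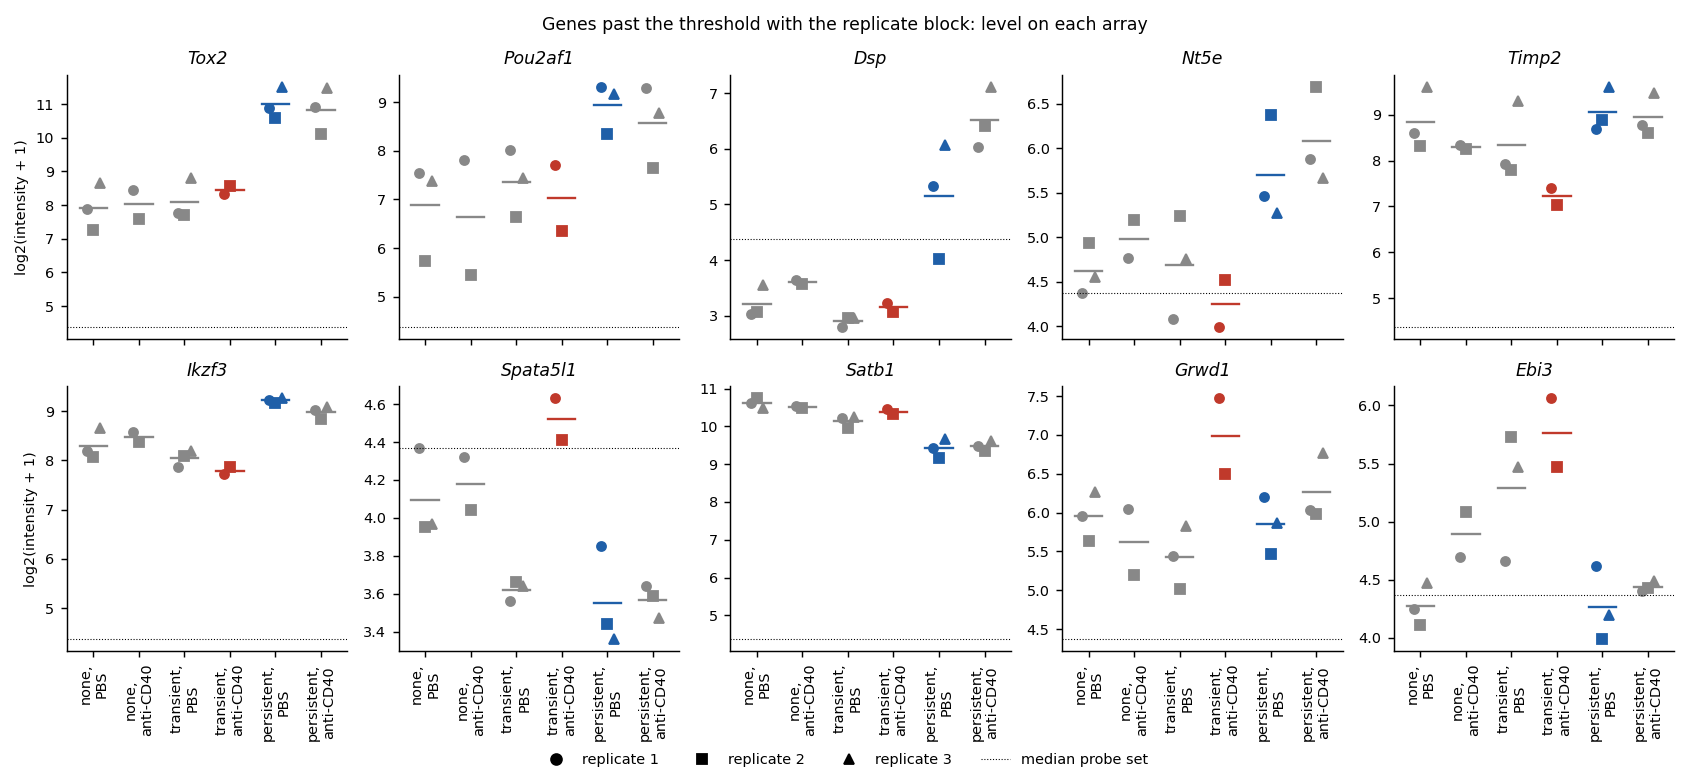
Level of the 10 genes called with the replicate block on all 16 arrays, as log2(intensity + 1), by antigen regime and treatment. Points are arrays, shaped by replicate number, bars are group means, red marks transient antigen with anti-CD40, blue marks persistent antigen with PBS, and the dotted line is the median probe set (4.37). Red and blue points do not overlap in any panel, and for Tox2 and Pou2af1 both persistent groups lie above the 4 other group means.

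Tox2, an HMG-box transcription factor of follicular helper cells, showed the widest gap. Its log2 level was 8.32 and 8.58 on the transient anti-CD40 arrays and 10.89, 10.60 and 11.52 on the persistent PBS arrays. The groups were separated by about 2 log2 units, and the transient arrays stayed near the levels without antigen (7.25 to 8.65). With the block the difference was −2.23 ± 0.22 (SE, adjusted p = 7.8e-05), a 4.7-fold lower level, at −2.57 within replicate 1 and −2.02 within replicate 2. Persistent antigen raised Tox2 over transient antigen with PBS by 2.92 ± 0.19 (adjusted p = 4.3e-08 with the block, 0.0073 without), while anti-CD40 at transient antigen added 0.69 ± 0.22 (0.0497 with the block, 1 without). Persistent antigen with anti-CD40 also had it high, at 10.91, 10.10 and 11.47. A second, dim Tox2 probe set (mean 3.86) gave 0.25 (adjusted p = 0.75), and the mean over both ended the call (−0.99, adjusted p = 0.056).

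Pou2af1 encodes OCA-B, a coactivator of octamer-binding factors in B cells that follicular helper cells also use. It was at 7.71 and 6.34 on the transient anti-CD40 arrays and at 9.32, 8.34 and 9.16 on the persistent ones. The replicate 2 array was the lowest in each group. With the block the difference was −1.79 ± 0.24 (SE, adjusted p = 0.0024), and it was negative within both replicate numbers. Persistent over transient antigen with PBS it rose by 1.57 ± 0.21 (adjusted p = 4.7e-05 with the block, 0.38 without), and anti-CD40 at transient antigen gave −0.22 ± 0.24 (adjusted p = 0.72). Without transient anti-CD40 replicate 1 the call was lost at −1.66 (adjusted p = 0.15).

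Ikzf3 encodes Aiolos, a zinc finger factor of the Ikaros family. Its levels were tight in both groups, 7.72 and 7.86 against 9.23, 9.17 and 9.26. The transient anti-CD40 arrays lay below every array without antigen (8.07 to 8.65), and the persistent arrays above. The difference with the block was −1.35 ± 0.18 (SE, adjusted p = 0.0022). Without the block it was −1.43 ± 0.24 and had the smallest adjusted p of all genes, 0.63, shared with Spata5l1. Prolonged antigen with PBS raised it by 1.16 ± 0.15, a call in both fits (adjusted p = 4.3e-05 with the block and 0.02 without). Leaving out transient anti-CD40 replicate 1 ended the call in the comparison (−1.25, adjusted p = 0.12), as did averaging in its 2 dim probe sets (−0.60, adjusted p = 0.17).

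Pou2af1 and Ikzf3 are also genes of B cells, so the marker list of B cells is given beside them. Its 15 measured members summed to intensities of 587 to 725 on the transient anti-CD40 arrays and 627 to 837 on the persistent PBS arrays. Cd79a, Cd79b, Pax5, Cr2 and Ebf1 were below the median probe set on all 5 arrays, and 0 members were called. Cd22, a B cell lectin, was at 7.61 to 8.32, and Ms4a1, the CD20 antigen, at 4.45 and 6.44 against 5.05, 6.92 and 5.76 (−0.53 ± 0.29, adjusted p = 0.56 in limma with the block). The median difference of the list was −0.11, the direction of Pou2af1 and Ikzf3, against 0.05 over all genes. Within both replicate numbers 8 members were lower and 2 higher, beside 4182 and 6311 of all 18193 genes. In 3 members the arrays lay wholly below those of persistent PBS and in 0 wholly above, beside 4.52% and 9.95% of all genes. The part of this list in the results for Pou2af1 and Ikzf3 was not tested. In such sorted samples fewer cells of a type and less RNA per cell cannot be told apart.

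Nt5e encodes CD73, the ecto-nucleotidase that makes adenosine from AMP. It was at 3.99 and 4.52 against 5.46, 6.37 and 5.27. The first of these lay below the median probe set, so the 2.93-fold difference is not exact. The blocked difference was −1.55 ± 0.21 (SE, adjusted p = 0.0024). Its other probe sets gave −0.15 and −0.03, and the mean of all 3 ended the call (−0.58, adjusted p = 0.097). Persistent antigen raised Nt5e over transient antigen with PBS with the block (95% interval 0.62 to 1.39, adjusted p = 0.0011) but not without it (0.26).

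Timp2, an inhibitor of matrix metalloproteinases, moved in opposite directions with antibody and with duration. Its levels were 7.41 and 7.03 against 8.68, 8.89 and 9.59, and all 3 transient PBS arrays were in between or at the persistent level (7.93, 7.80 and 9.29). The groups compared differed by −1.49 ± 0.19 with the block (SE, adjusted p = 0.0022). Anti-CD40 at transient antigen gave a blocked difference of −0.78 ± 0.19 (adjusted p = 0.012), and persistent antigen one of 0.71 ± 0.17 (adjusted p = 0.0087). Neither passed without the block (0.46 and 0.6). The other 5 probe sets ran from −1.11 to 0.33, and their mean with this one lost the call (−0.58, adjusted p = 0.10).

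Dsp encodes desmoplakin, a protein of desmosomes. It was at 3.23 and 3.07 on the transient anti-CD40 arrays, below the median probe set, and at 5.34, 4.02 and 6.07 on the persistent PBS arrays. Persistent antigen with anti-CD40 had it at 6.04, 6.41 and 7.12, and the 5 arrays without antigen at 3.03 to 3.64. The difference with the block was −1.75 ± 0.30 (SE, adjusted p = 0.024), while its other probe sets gave −1.72 ± 0.23 and −0.06, and the mean of all 3 ended the call (−1.18, adjusted p = 0.056). Leaving out persistent PBS replicate 1 or 3, or either transient anti-CD40 array, ended the call, with adjusted p values of 0.094, 0.11, 0.31 and 0.066. Persistent antigen raised Dsp over transient antigen with PBS by 2.24 ± 0.26, called in both fits (adjusted p = 1.2e-05 and 0.015).

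**Figure D2:**
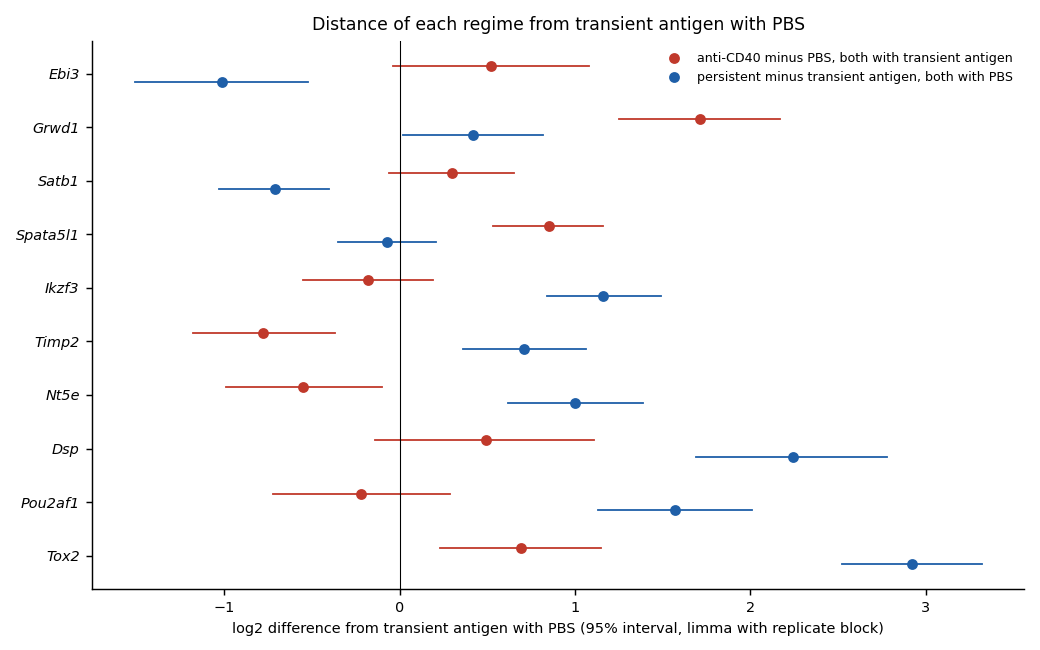
Distance of each regime from transient antigen with PBS for the 10 called genes, as log2 differences with 95% intervals from limma with the replicate block. Red is anti-CD40 minus PBS at transient antigen, blue is persistent minus transient antigen with PBS, and both use the same 3 transient PBS arrays. The 6 genes in the lower part have blue points at 0.71 to 2.92, while Grwd1 and Spata5l1 have red points at 1.71 and 0.85.

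Genes of the follicular helper list were more often lower than higher. Of its 19 measured members, 2 were called lower (Tox2 and Pou2af1) and 0 higher, beside 0.033% and 0.022% of all genes. At an unadjusted p under 0.05, 8 were lower and 0 higher, beside 3.56% and 6.81% of all genes, and 8 had arrays wholly below those of persistent antigen, beside 4.52%. The median difference was −0.34, against 0.05 over all genes, at −0.30 within replicate 1 and −0.27 within replicate 2. The list was chosen with earlier results of these data known.

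Its master regulator Bcl6 was at 6.04 and 5.83 against 6.86, 6.93 and 7.11. The groups did not overlap, but the difference of −0.90 ± 0.23 missed the threshold (SE, adjusted p = 0.14), and a second, dimmer probe set gave 0.10. Cxcr5, the chemokine receptor that leads T cells to follicles, was at 4.60 and 4.37 against 5.50, 5.89 and 5.69. Its difference of −1.12 ± 0.22 lay just outside the threshold (adjusted p = 0.052) and was among the 10 smallest p values without the block. The transient anti-CD40 arrays stood near the median probe set, so the size of the difference is not exact.

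Il21, the cytokine of follicular helper cells, was at 8.63 and 6.36 against 9.20, 7.44 and 9.34, a difference of −1.04 ± 0.39 (SE, adjusted p = 0.34) with overlapping groups. Maf, a factor that drives Il21, was at 9.07 and 8.40 against 10.17, 9.36 and 9.77 (−0.97 ± 0.32, adjusted p = 0.27), and 4 of its 5 other probe sets were also negative. Both genes were also above the level of transient antigen with PBS in either regime. With the block Il21 rose there by 3.55 ± 0.39 over transient antigen with PBS (adjusted p = 2.3e-05) and by 4.59 ± 0.34 with persistent antigen (1.1e-07), and Maf by 1.36 ± 0.32 (0.0077) and 2.33 ± 0.28 (1.5e-05). Without the block Il21 still passed (0.038 and 0.0031), and Maf did not (0.5 and 0.051).

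Other follicular helper genes had small differences with the block. Pdcd1, the receptor PD-1, differed by 0.06 (95% interval −0.36 to 0.47), Icos, an inducible costimulatory receptor, by 0.14 (−0.34 to 0.62) and Cd40lg, the ligand of CD40, by −0.10 (−0.48 to 0.28). Without the block the intervals of Pdcd1 and Cd40lg also lay within 1 log2 unit of 0 (−0.55 to 0.48 and −0.59 to 0.49), while that of Icos was −1.25 to 1.22.

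In the cytotoxic granule list 4 of 18 measured members were below at an unadjusted p under 0.05 with the block and 1 above. The shares of all genes were 3.56% and 6.81%, and 0 members were called. Gzmk, a granzyme, was at 5.75 and 5.21 against 7.58, 6.13 and 7.06 (−1.49 ± 0.28, adjusted p = 0.051), and Gzmb at 8.98 and 7.15 against 9.64, 8.05 and 10.07 (−0.87 ± 0.33, adjusted p = 0.35). Gzmb, too, was far above transient antigen with PBS, by 3.93 ± 0.33 with anti-CD40 (adjusted p = 3.1e-06) and 4.80 ± 0.29 with persistent antigen (2.1e-08). The list's median was −0.07.

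Plek, Gpm6b and Lgals3 stood lower without passing on the probe set used. Plek, an actin-linked protein of blood cells, was at 6.49 and 4.64 against 7.84, 6.31 and 7.83 (−1.61 ± 0.30, adjusted p = 0.05003). In limma with the block over all probe sets, a dimmer Plek probe set passed (−1.63 ± 0.26, adjusted p = 0.021). The remaining one gave −0.94 (adjusted p = 0.12). Gpm6b, a membrane proteolipid, was at 6.22 and 4.92 against 7.73, 6.71 and 6.83 (−1.46 ± 0.27, adjusted p = 0.05003). Galectin-3, Lgals3, was at 6.10 and 5.40 against 6.74, 7.22 and 6.81 (−1.26 ± 0.28, adjusted p = 0.092). All 3 were called higher in persistent than in transient antigen with PBS, in both fits. Anti-CD40 at transient antigen also raised Lgals3 (2.05 ± 0.28, adjusted p = 9.9e-05 with the block, 0.024 without) and, with the block only, Plek (2.04 ± 0.30, 0.0002, and 0.12 without). For Gpm6b it gave 0.75 ± 0.27 with the block (adjusted p = 0.1). Like most uncalled genes outside the panel, all 3 were named after their values were seen.

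Ebi3, a subunit of the cytokines IL-27 and IL-35, was called higher in transient antigen with anti-CD40. Its levels were 6.06 and 5.47 against 4.62, 3.99 and 4.20, with the persistent arrays around the median probe set, so the 2.9-fold difference is not exact. The blocked difference was 1.53 ± 0.27 (SE, adjusted p = 0.032). Transient antigen with PBS also had Ebi3 at 4.66, 5.73 and 5.47, and from there it fell with persistent antigen (−1.01 ± 0.23, adjusted p = 0.007 with the block, 0.089 without). Leaving out persistent PBS replicate 2 or 3 or transient anti-CD40 replicate 1 ended the call in the comparison (adjusted p = 0.22, 0.14 and 0.41), and cyclic loess scaling brought it to 0.051.

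Satb1, a chromatin organiser that is high in thymocytes and naive T cells, was at 10.46 and 10.32 against 9.43, 9.17 and 9.67. The transient anti-CD40 arrays were close to those without antigen (10.48 to 10.74). Its difference with the block was 1.01 ± 0.17 (SE, adjusted p = 0.024), a 2.02-fold higher level. All 5 probe sets of the gene were positive, from 0.69 to 1.15, but their mean ended the call (0.88, adjusted p = 0.088). From transient antigen with PBS Satb1 fell with persistent antigen (−0.71 ± 0.15, adjusted p = 0.0031 with the block, 0.15 without). Its call ended without persistent PBS replicate 1 or 2 or either transient anti-CD40 array (adjusted p = 0.082, 0.18, 0.30 and 0.058), at differences of 0.91 to 1.03.

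Other genes of naive and recirculating cells leaned the same way. Of 25 measured members 9 had an unadjusted p under 0.05 above and 1 below with the block, beside 6.81% and 3.56% of all genes. Satb1 was the only call, where 0.022% of all genes were called higher and 0.033% lower. The list's median was 0.26 with the block but −0.05 without it, and 0.05 and 0.28 within the replicate numbers, so its direction depended on the pairing. Bcl2, the survival factor, was at 8.18 and 7.62 against 7.16, 6.56 and 7.23 (1.03 ± 0.19, adjusted p = 0.05003), and its 5 probe sets were all positive. Igfbp4, a binding protein of insulin-like growth factors, was at 8.64 and 7.16 against 6.07, 5.71 and 6.43 (1.97 ± 0.38, adjusted p = 0.051). Its other probe sets were all positive, from 0.37 to 2.82. Those at 2.82 and 1.23 passed in limma with the block over all probe sets (adjusted p = 0.018 and 0.019).

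In both regimes the naive list lay below the arrays without antigen. Il7r, the interleukin 7 receptor, was at 8.85 and 7.91 against 7.47, 7.29 and 7.65 (1.08 ± 0.30, adjusted p = 0.19), while arrays without antigen had 9.94 to 10.93. Ccr7, the lymph node homing receptor, was at 7.97 and 7.91 against 7.10, 7.25 and 6.79 (0.86 ± 0.23, adjusted p = 0.17). Against the array without antigen but with anti-CD40 of the same number, the list's median was −1.09 and −0.88 in transient antigen with anti-CD40 and −1.38 and −1.06 in persistent antigen with PBS. In transient antigen with PBS it was −0.32 and −0.15. On this scale every replicate 2 value crosses a gap in the array codes, since the replicate 2 reference belongs to another run of consecutive codes than the antigen arrays, and the part of that gap was not tested.

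Grwd1, a WD repeat protein of ribosome assembly, was at 7.47 and 6.50 against 6.20, 5.47 and 5.87. Both transient anti-CD40 arrays lay above all 3 persistent arrays, and replicate 1 was above every other array of the series. The difference with the block was 1.29 ± 0.22 (SE, adjusted p = 0.024), a 2.45-fold higher level. With the block anti-CD40 raised it at transient antigen by 1.71 ± 0.22 (adjusted p = 5.9e-05, and 0.089 without). Persistent antigen with PBS differed from transient by 0.42 ± 0.19 (adjusted p = 0.17). In the comparison the dimmer Grwd1 probe sets gave 0.99 and 0.57, and the mean of all its probe sets ended the call (0.95, adjusted p = 0.079). The call was lost without persistent PBS replicate 2 or 3 or transient anti-CD40 replicate 1 (adjusted p = 0.10, 0.11 and 0.41).

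Spata5l1, an AAA-type ATPase, was at 4.63 and 4.41 against 3.85, 3.44 and 3.36. The transient anti-CD40 arrays were just above the median probe set and the others below it, so its 1.89-fold difference is not exact. The blocked difference was 0.92 ± 0.15 (SE, adjusted p = 0.024). Anti-CD40 raised it at transient antigen in both fits, by 0.85 ± 0.15 with the block (adjusted p = 0.001) and 0.89 ± 0.17 without (0.038). Leaving out persistent PBS replicate 2 or 3 or either transient anti-CD40 array ended the call in the comparison (adjusted p = 0.12, 0.11, 0.29 and 0.056).

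The ribosome biogenesis list, genes for making and processing ribosomal RNA, had the largest median of the lists. None of its 29 measured members was called after adjustment. With the block 26 had an unadjusted p under 0.05 above and 0 below, beside 6.81% and 3.56% of all genes, and 27 were higher within both replicate numbers, beside 34.7%. Its median was 0.72 with the block and 0.63 without, against 0.05 and 0.04 over all genes, and 0.63 with cyclic loess and the block. Within replicate 1 the median was 0.73 and within replicate 2 it was 0.57. In 8 members the groups did not overlap, beside 9.95% of all genes. In the members described next the replicate 2 array was the lowest of its group.

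Gnl3, the nucleolar protein nucleostemin, was at 9.31 and 7.62 against 7.90, 6.04 and 7.66 (1.43 ± 0.28, adjusted p = 0.052). Nolc1, a nucleolar phosphoprotein, was at 7.42 and 6.26 against 6.17, 5.06 and 5.18 (1.27 ± 0.26, adjusted p = 0.068). Its dimmer probe sets gave 0.99 and 0.21. Utp20 and Rrs1, factors of ribosomal subunit assembly, differed by 1.09 ± 0.25 (adjusted p = 0.094) and 0.79 ± 0.18 (0.097). With the block, anti-CD40 raised all 4 at transient antigen (1.55, 1.91, 1.16 and 0.73, adjusted p = 0.001, 0.0001, 0.0042 and 0.013), while persistent over transient antigen with PBS gave 0.12, 0.64, 0.07 and −0.06, none of them called. Without the block none of the 4 passed with anti-CD40 (adjusted p = 0.45, 0.07, 0.56 and 1).

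On the scale of the no-antigen anti-CD40 arrays of the same number, the ribosome biogenesis list had medians of 0.91 and 0.76 in transient antigen with anti-CD40. In persistent antigen with PBS they were 0.13 and 0.07, and in transient antigen with PBS −0.27 and 0.18. Persistent antigen with anti-CD40 differed between numbers, at 0.06 and 0.71.

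Myc, the transcription factor known to drive these genes, was at 5.76 and 5.49 against 4.52, 4.62 and 4.08. The groups did not overlap, and the difference was 0.98 ± 0.23 (SE, adjusted p = 0.094). The persistent arrays stood around the median probe set, so the size of the difference is not exact. Anti-CD40 at transient antigen gave 0.53 ± 0.23 (adjusted p = 0.18), and persistent antigen −0.46 ± 0.20 (0.15). Myc fell from no antigen to persistent antigen with PBS (−1.14 ± 0.20 with the block, adjusted p = 0.00034, and 0.089 without it).

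Myc binds the E-box CACGTG. Among 24 genes of the ribosome biogenesis list with an entry in the RefSeq promoter table (GRCm38.p6), 1 (4.17%) had it, on either strand, in the 250 bases before the gene start, beside 1854 of 27025 genes (6.86%). That gene, Nop2, a ribosomal RNA methyltransferase, is shown with the E-box in capitals, at position −60 from the start, chr6:125131633-125131882 on the plus strand.
Nop2: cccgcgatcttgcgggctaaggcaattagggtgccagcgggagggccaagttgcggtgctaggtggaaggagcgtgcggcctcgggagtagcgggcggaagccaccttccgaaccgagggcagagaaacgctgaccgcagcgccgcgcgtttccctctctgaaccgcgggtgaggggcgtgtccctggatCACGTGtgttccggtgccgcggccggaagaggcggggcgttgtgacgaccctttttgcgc

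Nop2 itself was at 6.26 and 5.87 against 5.48, 5.06 and 5.30, without overlap, a difference of 0.81 ± 0.20 (SE, adjusted p = 0.11). The search for this motif in this list was added after the data had been seen, and it gives no measure of binding.

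**Figure D3:**
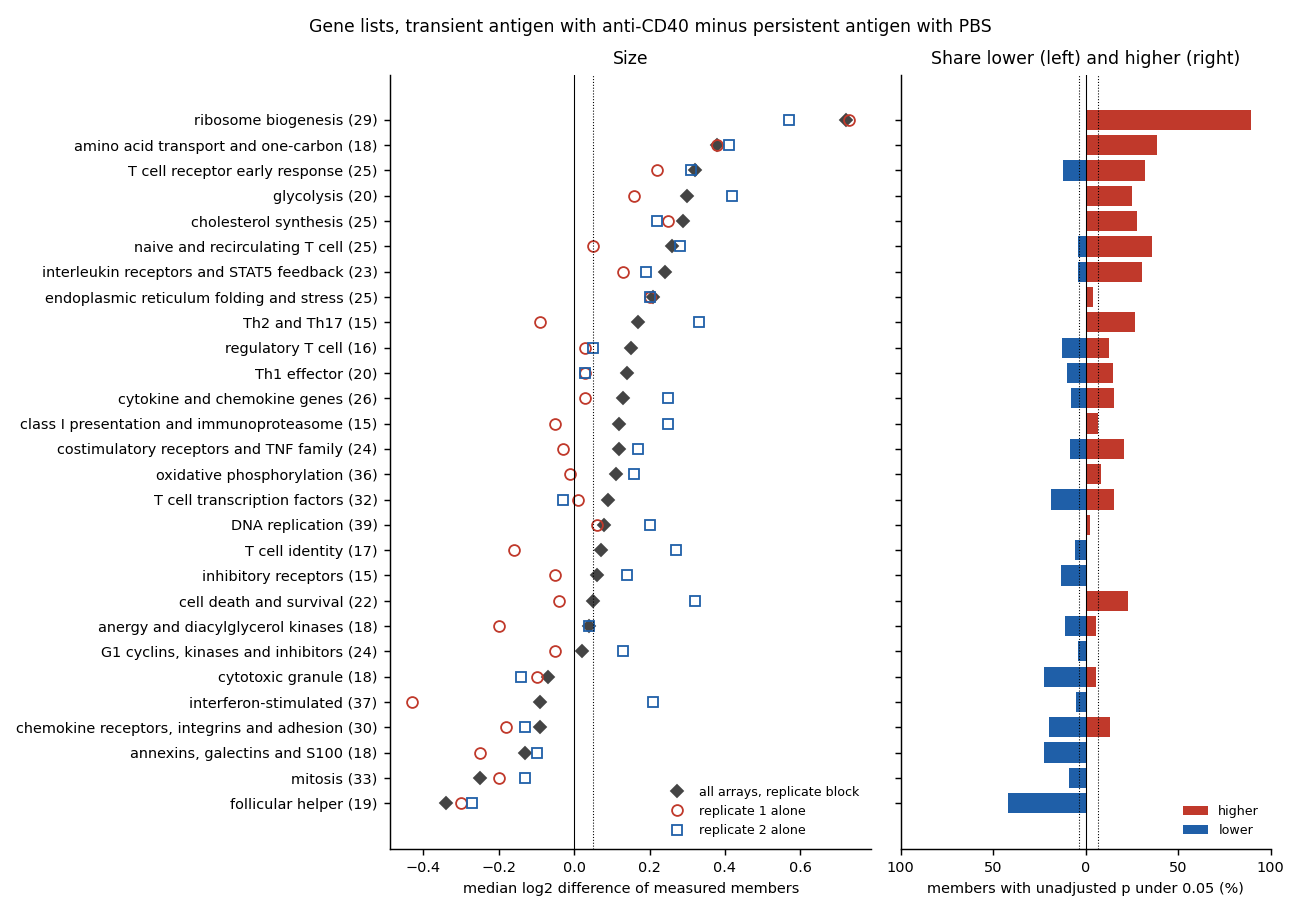
Gene lists ordered by their median log2 difference, transient antigen with anti-CD40 minus persistent antigen with PBS, with the number of measured members in brackets. At left, diamonds are medians from limma with the replicate block, circles and squares the medians within replicates 1 and 2, and the dotted line the median of all genes (0.05). At right, bars give the percent of members with an unadjusted p under 0.05 higher (red) or lower (blue), with dotted lines at the shares of all genes (6.81 and 3.56%). Ribosome biogenesis lies highest at 0.72 and follicular helper lowest at −0.34.

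Lists of nutrient use pointed the same way at smaller size. Amino acid transport and one-carbon metabolism had 7 of 18 measured members above at an unadjusted p under 0.05 and 0 below (median 0.38), glycolysis 5 of 20 and 0 (0.30), and cholesterol synthesis 7 of 25 and 0 (0.29). None had a call, and the shares of all genes were 6.81% above and 3.56% below. Shmt2, a mitochondrial enzyme of one-carbon metabolism, was at 8.96 and 7.92 against 7.93, 6.74 and 7.60 (1.18 ± 0.25, adjusted p = 0.076). A nearly as bright Shmt2 probe set (mean 6.88 against 7.24) gave only 0.24, and the dim ones 0.30 and 0.54. Hk2, a hexokinase, was at 8.88 and 7.67 against 7.76, 6.10 and 7.01 (1.29 ± 0.34, adjusted p = 0.17). Outside these lists Fabp5, a fatty acid binding protein, was at 9.38 and 8.14 against 7.98, 6.20 and 8.21 (1.63 ± 0.31, adjusted p = 0.05003). Oxidative phosphorylation stayed near the background, with 3 of 36 above and 0 below (median 0.11, and −0.03 without the block).

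In the T cell receptor early response list 8 of 25 members were above at an unadjusted p under 0.05 and 3 below. The shares of all genes were 6.81% and 3.56%. With 0 called and a median of 0.32, the members of the list split. Tnfrsf4, the costimulatory receptor OX40, was at 7.82 and 7.81 against 6.17, 6.77 and 6.27 (1.41 ± 0.31, adjusted p = 0.092), and anti-CD40 raised it at transient antigen by 1.20 ± 0.31 with the block (adjusted p = 0.016, and 0.36 without). Nr4a3, an orphan nuclear receptor induced by receptor signals, was at 8.27 and 7.05 against 7.05, 5.77 and 6.24 (1.35 ± 0.32, adjusted p = 0.099). Its dimmer probe sets gave only 0.17 and 0.31. Egr2, a zinc finger factor linked to anergy, went the other way, at 7.76 and 7.15 against 8.86, 8.36 and 8.91 (−1.10 ± 0.24, adjusted p = 0.092), and its other probe set gave −1.07 ± 0.27.

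Among transcription factors, Ahr, the aryl hydrocarbon receptor, was at 8.16 and 8.00 against 6.79, 6.07 and 6.46 (1.64 ± 0.34, adjusted p = 0.068). A second, dimmer Ahr probe set gave 0.16. Bhlhe40, a helix-loop-helix factor of activated T cells, was at 8.63 and 7.98 against 7.05, 6.78 and 7.11 (1.37 ± 0.31, adjusted p = 0.093). Neither overlapped between the groups. With the block anti-CD40 raised Ahr at transient antigen by 2.60 ± 0.34 (adjusted p = 6.4e-05) and Bhlhe40 by 2.56 ± 0.31 (4e-05), and persistent antigen with PBS raised them by 0.96 ± 0.29 (0.04) and 1.19 ± 0.27 (0.0064). Without the block both passed with anti-CD40 (0.011 and 0.01) and neither with persistent antigen (0.26 and 0.11). Ikzf2, the Ikaros family factor Helios, was at 6.89 and 7.63 against 8.60, 8.72 and 9.47 (−1.35 ± 0.38, adjusted p = 0.19).

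Ccr6, a chemokine receptor, was at 7.13 and 6.94 against 5.73, 5.88 and 5.57 (1.33 ± 0.26, adjusted p = 0.051), and was among the 10 smallest p values without the block. The others of those 10 were Ikzf3, Spata5l1, Ebi3, Tox2, Cxcr5, Dsp, Ahr, the clone-named gene 9630013D21Rik (−0.93 ± 0.21) and Pecr, a peroxisomal reductase (1.25 ± 0.28), none of them called there.

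A panel of 38 T cell genes was followed through the comparison, of which 36 were measured. None was called in either fit. With the block 9 had an unadjusted p under 0.05 above and 6 below, beside 6.81% and 3.56% of all genes. With the block the 95% interval lay within 1 log2 unit of 0 for 21 of the 36, a smaller share than the 94.6% of all genes. Without the block it did so for 10 (27.8%), beside 73.9% of all genes. The intervals of Cd44, a marker of antigen experience (−0.61 to 0.50 around −0.05), Irf4, a factor graded with receptor signal (−0.38 to 0.67 around 0.15), Tbx21, the Th1 regulator (−0.47 to 0.84 around 0.18), and Cxcr3, a Th1 chemokine receptor (−0.64 to 0.89 around 0.12), lay within 1 log2 unit of 0 with the block. Without it none of these 4 did (−1.20 to 0.89 for Cd44, −2.02 to 2.01 for Irf4, −1.77 to 1.41 for Tbx21 and −1.21 to 1.06 for Cxcr3), so a difference of more than 2-fold is bounded only by the blocked fit. Cxcr3 was at 10.73 and 10.65 against 10.80, 10.57 and 10.92, while persistent antigen had raised it over no antigen with PBS by 4.72 ± 0.32 (adjusted p = 9.3e-09 with the block).

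With the block the intervals of the cytokine genes Ifng and Il2 reached beyond 1 log2 unit, while those of Tnf and Il10 did not. Ifng, the Th1 cytokine, was at 10.08 and 5.97 against 8.72, 6.02 and 8.91, a difference of 0.71 with an interval of −0.21 to 1.64. Within replicate 1 it differed by 1.36 and within replicate 2 by −0.05, so no direction can be given. Il2, a growth factor of T cells, was at 4.85 and 5.46 against 4.27, 4.32 and 4.51 (0.71, 0.22 to 1.21, adjusted p = 0.27), with 2 of 3 persistent arrays below the median probe set. Tnf differed by 0.03 (−0.42 to 0.49) and Il10 by −0.36 (−0.78 to 0.05). Bcl2l11, the death factor Bim, differed by 0.04 (−0.48 to 0.56).

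**Figure D4:**
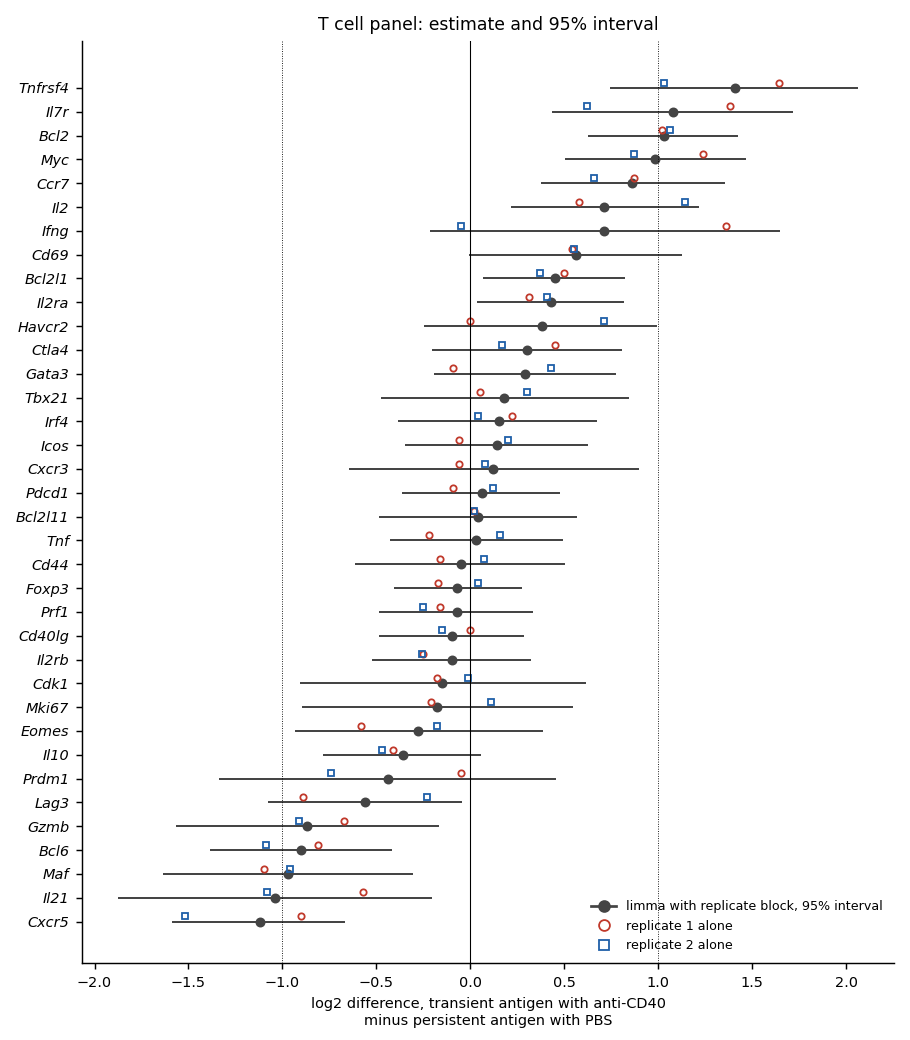
Log2 difference of the 36 measured panel genes, transient antigen with anti-CD40 minus persistent antigen with PBS. Filled points and lines are estimates and 95% intervals from limma with the replicate block, open circles and squares the differences within replicates 1 and 2, and dotted lines mark 1 log2 unit. Tnfrsf4 (1.41) stands highest and Cxcr5 (−1.12) lowest, and the intervals of 21 genes stay between the dotted lines.

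Genes of DNA replication differed little between the regimes with the block. All 39 measured genes of the DNA replication list had intervals within 1 log2 unit of 0 with the block, beside 94.6% of all genes. Their median difference was 0.08, 1 was above at an unadjusted p under 0.05 and 0 below, beside 6.81% and 3.56% of all genes. Against the no-antigen anti-CD40 array of the same number the list's median was 1.45 and 2.00 in transient antigen with anti-CD40 and 1.43 and 1.99 in persistent antigen with PBS, while transient antigen with PBS gave −0.13 and 0.30.

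Replication genes are targets of E2F factors, and the promoters of Cdc6 and Pola1 are shown. Among list members that hold the motif, these rose most with the block from no antigen to persistent antigen, both with PBS. E2F letters (TTTCCCGC or TTTGGCGC, either strand) were found in the 250 bases before the start of 6 of 31 DNA replication genes in the RefSeq table (19.4%), of 0 of 28 mitosis genes and of 407 of 27025 genes (1.51%). Capitals mark the match, at position −138 from the start in both (GRCm38.p6, chr11:98907901-98908150, plus strand, and chrX:93632156-93632405, minus strand).
Cdc6: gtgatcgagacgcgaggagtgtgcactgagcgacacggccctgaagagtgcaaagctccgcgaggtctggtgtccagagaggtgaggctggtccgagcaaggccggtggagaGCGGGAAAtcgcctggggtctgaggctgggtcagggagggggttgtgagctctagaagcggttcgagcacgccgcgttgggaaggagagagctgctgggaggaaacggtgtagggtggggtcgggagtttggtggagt
Pola1: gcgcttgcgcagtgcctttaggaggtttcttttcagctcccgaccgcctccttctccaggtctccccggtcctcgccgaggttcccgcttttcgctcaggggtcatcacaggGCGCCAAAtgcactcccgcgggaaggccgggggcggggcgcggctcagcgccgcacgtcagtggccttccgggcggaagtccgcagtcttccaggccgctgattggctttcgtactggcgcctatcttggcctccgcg

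Cdc6, which loads the replicative helicase, was at 8.40 and 7.53 against 8.33, 7.14 and 7.79, a difference of 0.10 with an interval of −0.55 to 0.75 with the block and −1.33 to 1.75 without. Over transient antigen with PBS it rose by 3.04 ± 0.31 with anti-CD40 (adjusted p = 1.2e-05 with the block, 0.068 without) and by 2.94 ± 0.27 with persistent antigen (1.2e-06 and 0.047). Pola1, the catalytic subunit of DNA polymerase alpha, was at 9.24 and 9.13 against 9.32, 8.91 and 8.77 (0.08, −0.62 to 0.78 with the block, −0.87 to 1.25 without). Over transient antigen with PBS it rose by 2.15 ± 0.33 (0.00029 with the block, 0.059 without) and 2.08 ± 0.29 (7.6e-05 and 0.044).

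The mitosis list leaned slightly toward persistent antigen. With the block 3 of its 33 measured members had an unadjusted p under 0.05 below and 0 above, beside 3.56% and 6.81% of all genes. Within both replicate numbers 23 were lower and 1 higher, beside 4182 and 6311 of all 18193 genes. Blocked intervals lay within 1 log2 unit of 0 for 24 of the 33, a smaller share than the 94.6% of all genes. The median was −0.25 (−0.20 and −0.13 within the numbers). Cdk1, the mitotic kinase, differed by −0.15 (−0.90 to 0.61) and Mki67, the Ki-67 antigen, by −0.18 (−0.89 to 0.54). Without the block their intervals were −1.22 to 1.25 and −1.01 to 1.11. Over the no-antigen anti-CD40 arrays the list's median was 1.68 and 3.04 in transient antigen with anti-CD40, 1.89 and 3.06 in persistent antigen with PBS, and 0.40 and 1.26 in transient antigen with PBS.

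**Figure D5:**
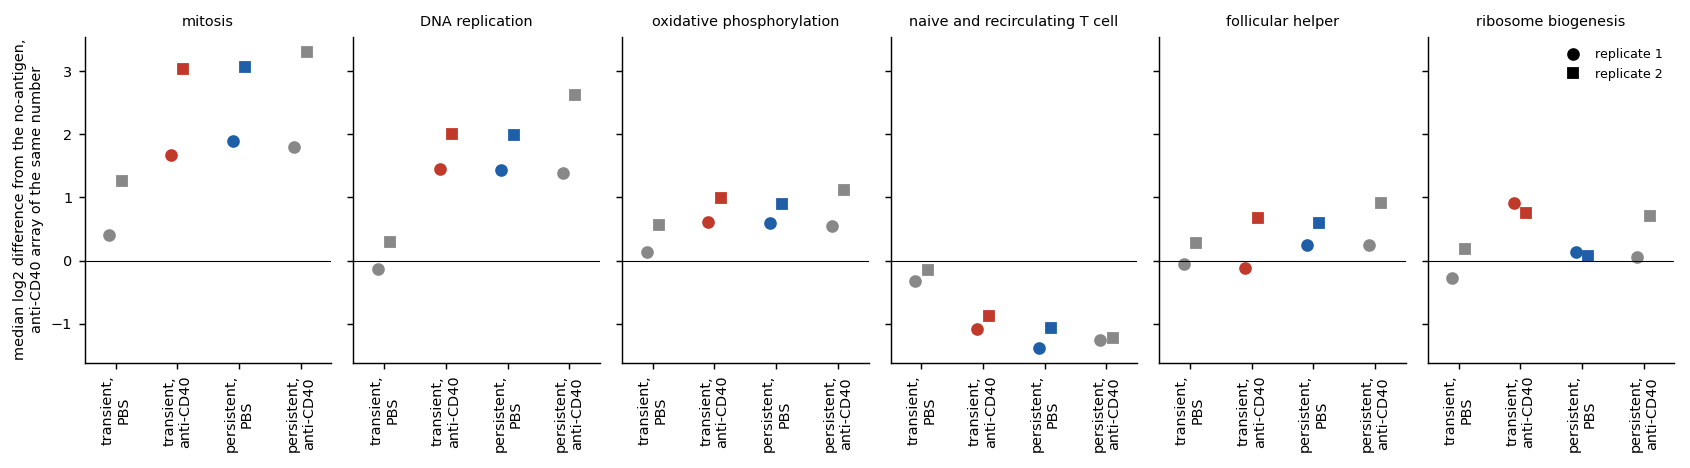
Median log2 difference of the members of 6 gene lists from the no-antigen, anti-CD40 array of the same replicate number, for the antigen groups. Circles are replicate 1, squares replicate 2, red marks transient antigen with anti-CD40 and blue persistent antigen with PBS. Replicate 2 values cross runs of array codes. Red and blue lie side by side for mitosis, DNA replication and oxidative phosphorylation, and red lies above blue for ribosome biogenesis (0.91 and 0.76 against 0.13 and 0.07).

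Genes chosen on arrays outside the comparison were also followed. Persistent antigen with anti-CD40 against no antigen with PBS called 571 genes higher and 299 lower without a block, a choice made after the data had been seen. For the 571 the median difference between the 2 regimes was 0.03 in both fits, near that of all genes, but members differed both ways. With the block 103 had an unadjusted p under 0.05, 52 higher and 51 lower, beside 1887 of all genes (10.4%). Of the 571, 3 were called, where all genes had 0.022% called higher and 0.033% lower. Blocked intervals within 1 log2 unit of 0 were found for 463 (81.1%), fewer than the 94.6% of all genes. Over the no-antigen anti-CD40 arrays their median was 1.28 and 1.39 in transient antigen with anti-CD40 and 1.23 and 1.31 in persistent antigen with PBS, against 0.10 and 0.49 in transient antigen with PBS. For the 299 the blocked median was 0.14, with 248 intervals within 1 (82.9%) and 1 called. At an unadjusted p under 0.05, 43 of them (14.4%) differed. Of these 35 were higher and 8 lower, where all genes had 6.81% and 3.56%. Levels of the 299 over the no-antigen anti-CD40 arrays were −1.09 and −0.81 against −1.17 and −0.95.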

How the data were processed

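RNA of sorted CD4+CD90.1+ T cells was extracted with Trizol and, after 2 rounds of amplification with biotin labelling (per the labels' protocols), hybridised to 1 Affymetrix mouse array per sample. The authors deposited intensities on a linear scale, for which the submitters' processing notes name RMA without a version. They were used as log2(intensity + 1), which shrinks differences between dim genes, with no further normalization. Of 45101 probe sets 64 were controls, 9160 were not found in the gene table, 932 had several symbols and 34945 had 1. They gave 18193 genes, each read from its probe set with the highest mean over 16 arrays. For named genes with several probe sets, the others are given only for some. The number of arrays limits the precision.

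Tests used limma 3.58.1 (R 4.3.3), as a model of 6 group means over all 16 arrays, moderated with an intensity trend, without and with a fixed block for replicate number. A gene was called at a Benjamini-Hochberg adjusted p under 0.05, adjusted over every gene tested. The median of all differences was 0.039 without and 0.049 with the block. Each array's deviations from its group mean were correlated between arrays. This gave 0.48 to 0.81 for the 36 same-number pairs and −0.81 to 0.60 (median −0.53) for the 70 other pairs. Deviations sum to 0 within a group, so the negative values of other pairs follow in part from the positive same-number ones. They are no separate evidence of pairing. All 16 arrays correlated best with one of their own number. On this check of the data, with no label saying so, the numbers were taken to pair the arrays.

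The comparison, the 37 gene lists (748 genes, 688 measured) and the panel of 38 genes (36 measured) were chosen with earlier results of these data known. Lists are described by counts and medians, with no set test. Named were the largest called changes without overlap between arrays and brighter than the median probe set in at least one group, leaving out clone names, receptor segments and sex-linked genes, up to 4 called members of each list, and the panel. Where under 5 genes were called, the 10 with the smallest p were named. Other list members were named after their values were seen. Both fits were first tested on simulated data. Promoter sequences are RefSeq's (GRCm38.p6). Alternatives were other blocks, array weights, no trend, the 5 arrays alone, replicates 1 and 2 only, bright genes, averaged probe sets, cyclic loess, log2(intensity + 16) and leaving out each array.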

Additional observations from a re-analysis of the deposited data

How the results depend on the processing

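The count of called genes was 0 without a block. It was 10 with the replicate block (4 higher, 6 lower), 24 with a block for 4 runs of array codes (14 higher, 10 lower), 1 without an intensity trend and 0 under the other planned settings. Leaving out each array in turn it ran from 0 to 4. With the replicate block the count of 10 became 21 among genes above the median probe set, 17 with cyclic loess (4 higher, 13 lower), 3 with the mean of all probe sets, 57 with array weights and 435 in the 5 arrays alone, where 1 residual degree of freedom remained. The fits with array weights and of the 5 arrays alone with the block were added later, with the data known. Leaving out each array in turn it ran from 6 to 56. A group left with 1 array is assumed to vary like the others.

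Tox2, Timp2 and Nt5e lost their call only with the mean of probe sets, Pou2af1 only without transient anti-CD40 replicate 1, and Ikzf3 in both of these, among 13 alternatives with the block. Dsp lost it in 8 of 12, Ebi3 in 7 of 13, Satb1 in 6 of 13, Grwd1 in 5 of 13 and Spata5l1 in 5 of 12. No called difference changed sign. Of 46 genes that were not called without the block 19 changed sign under some alternative, and 17 of 46 with it. The medians of the naive and recirculating list (−0.05 without, 0.26 with) and of oxidative phosphorylation (−0.03 and 0.11) changed sign with the block. Depth in reads has no counterpart here, and levels below the median probe set are not set apart from background.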

Other observations

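Interferon-stimulated genes differed between the replicate numbers. The list's median was −0.43 within replicate 1 and 0.21 within replicate 2, and −0.09 with the block. At an unadjusted p under 0.05, 0 of 37 measured members were above and 2 below, beside 6.81% and 3.56% of all genes. Rsad2, an antiviral protein, was at 6.93 and 7.37 on the transient anti-CD40 arrays against 8.34, 7.39 and 8.86 on the persistent PBS arrays, a difference of −1.41 within replicate 1 and −0.02 within replicate 2. The letters GAAANNGAA, the core of the interferon-stimulated response element, stood on either strand in the 250 bases before the start of 14 of 27 of these genes in the RefSeq table (51.9%), beside 2211 of 27025 genes (8.18%).

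Genes of adhesion and migration went both ways, with 4 of 30 measured members above at an unadjusted p under 0.05 and 6 below with the block. The shares of all genes were 6.81% and 3.56%. Itga4, an integrin chain, was at 9.62 and 9.32 against 10.91, 9.90 and 10.58 (−0.89 ± 0.23, SE, limma with the block, adjusted p = 0.15). Cxcr6, a chemokine receptor, was at 5.82 and 4.28 against 6.93, 5.52 and 5.93 (−1.20 ± 0.26, adjusted p = 0.077). In the annexin, galectin and S100 list 4 of 18 were below and 0 above (median −0.13), among them Anxa2, at 9.50 and 9.15 against 10.51, 10.06 and 9.93 (−0.90 ± 0.31, adjusted p = 0.29).

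Interleukin receptors and their feedback genes had 7 of 23 measured members above at an unadjusted p under 0.05 and 1 below (median 0.24). The shares of all genes were 6.81% and 3.56%. Cish, a feedback inhibitor of cytokine signals, was at 6.04 and 5.69 against 5.02, 5.31 and 5.19 (0.67 ± 0.18, adjusted p = 0.18), and Socs3, of the same family, at 6.58 and 7.31 against 6.08, 6.25 and 6.34 (0.80 ± 0.27, adjusted p = 0.28). Il10ra went lower, at 4.36 and 4.60 against 5.05, 5.30 and 5.01 (−0.57 ± 0.18, adjusted p = 0.27). In the cell death and survival list 5 of 22 were above and 0 below, Bcl2 and Birc3 (0.60 ± 0.20, adjusted p = 0.27) among them. None of these lists had a call.

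Lists of other helper fates had medians of 0.14 to 0.17 with the block and of 0.03 to 0.08 without it. The median of Th2 and Th17 genes was −0.09 within replicate 1 and 0.33 within replicate 2. At an unadjusted p under 0.05 with the block, 6.81% of all genes were above and 3.56% below, and 0.022% were called higher and 0.033% lower. Th1 effector genes had 3 of 20 measured members above at an unadjusted p under 0.05 and 2 below (median 0.14), Th2 and Th17 genes 4 of 15 and 0 (0.17), and regulatory T cell genes 2 of 16 and 2 (0.15), with Ebi3 called higher and Nt5e lower in the last. Foxp3, the regulator of those cells, was dim on all 5 arrays (3.09 to 3.67).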
